A study of Caenorhabditis elegans with 2 samples.

Results

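Promoter peaks of tagged NHR-90 in Caenorhabditis elegans were defined by position. A peak entered when it was on the authors' list of reproducible peaks on build ce11 and its summit, the peak's highest point, lay in a promoter window. The window covered 1000 bp before and 500 bp after the first base of each annotated protein-coding transcript. Summits within 100 bp of a tRNA, snoRNA or snRNA gene were left out. The list held 1441 peaks, 1422 of them on chromosomes I to V and X. Of these, 644 had a summit in a promoter window, 148 of which lay near such a small-RNA gene, so 496 promoter peaks remained. They had 493 distinct intervals and formed 481 regions after merging, so a few neighbours are not independent.

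The chromatin came from whole hermaphrodites of strain OP484, young adults 64 h after synchronization as starved L1 larvae. A transgene inserted in this line gave NHR-90 with a GFP and FLAG tag at its C terminus. The immunoprecipitation used an antibody to GFP, while a separate label field names nhr-90 as the antibody. There were 2 biological replicates in 1 group, and no untagged or treated animals, so groups of samples could not be compared. A whole-animal sample mixes all tissues, so a peak does not tell in which cells the site was occupied, and few occupied cells cannot be told apart from weak occupancy in many.

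NHR-90 belongs to the nuclear hormone receptors, transcription factors that bind DNA through zinc fingers and often respond to small lipid-like ligands. This family is greatly expanded in nematodes. Many worm genes share 1 intergenic stretch with a neighbour transcribed in the opposite direction, and others follow each other closely on the same strand, some of them in operons that are transcribed together from 1 promoter at the 5′ end. Factor ChIP-seq in worms commonly recovers open promoters of broadly used genes, so recovered DNA does not by itself tell whether the factor contacts DNA directly.

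The sequences below show 100 bases at summits that carry the strongest signals or the words described further on. They are on the plus strand of WBcel235, the assembly of ce11, were read from the RefSeq copy, and contain no annotated exon. In the first pair, the strongest promoter peaks, capitals mark the longest run of letters both windows share, 11 bases.
rpl-3, III:3867537-3867636: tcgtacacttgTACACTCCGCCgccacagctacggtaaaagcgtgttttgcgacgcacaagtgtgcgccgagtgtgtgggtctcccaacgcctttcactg
tasp-1, III:10759203-10759302: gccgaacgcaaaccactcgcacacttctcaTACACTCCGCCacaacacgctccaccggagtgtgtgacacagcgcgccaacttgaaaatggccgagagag
In the next 4, capitals mark the word CTGCGTCTC or its reverse complement GAGACGCAG, which was more frequent at summits than beside them.
hsp-3, X:6092127-6092226: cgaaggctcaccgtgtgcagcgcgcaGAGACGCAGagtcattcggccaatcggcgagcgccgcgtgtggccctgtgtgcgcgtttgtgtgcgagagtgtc
sec-61.G, V:10897294-10897393: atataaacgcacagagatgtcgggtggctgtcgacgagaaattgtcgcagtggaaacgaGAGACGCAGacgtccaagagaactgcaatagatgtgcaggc
drr-2, III:13643674-13643773: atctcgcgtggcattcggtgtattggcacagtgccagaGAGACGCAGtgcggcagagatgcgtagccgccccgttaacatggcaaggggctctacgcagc
cebp-1, X:1454525-1454624: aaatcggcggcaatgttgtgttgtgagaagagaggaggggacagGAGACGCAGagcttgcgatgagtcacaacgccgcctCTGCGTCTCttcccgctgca
In the last 4, capitals mark the GA repeat GAGAGAG or its reverse complement, and then the E-box CACGTG.
K12H4.5, III:8043934-8044033: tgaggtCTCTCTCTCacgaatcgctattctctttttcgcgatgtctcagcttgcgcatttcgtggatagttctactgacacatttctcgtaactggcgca
Y54G11A.2, II:14251534-14251633: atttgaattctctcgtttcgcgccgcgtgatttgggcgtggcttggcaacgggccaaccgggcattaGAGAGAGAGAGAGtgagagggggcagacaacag
W03C9.5, II:11967624-11967723: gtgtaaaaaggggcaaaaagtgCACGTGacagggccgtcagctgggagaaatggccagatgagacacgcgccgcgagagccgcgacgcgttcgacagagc
mans-3, X:5165144-5165243: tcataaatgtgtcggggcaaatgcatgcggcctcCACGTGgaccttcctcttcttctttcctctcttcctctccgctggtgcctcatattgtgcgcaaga

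The signal of a peak is the authors' own value, whose scale is not given, and it was used only to rank and describe peaks within a list. Across the 496 promoter peaks its median was 128 (interquartile range 110 to 161), about that of the 460 other nuclear peaks of the list outside promoter windows and away from small-RNA genes (129). The 466 peaks at small-RNA genes had a median of 178. Numbers of reads are unknown here, so the intervals given below cover the counting of peaks or genes, not the spread between animals, and no test was run, since peaks are not replicates. As background, the same promoter rule was applied to lower pooled summits. These are 11371 promoter summits from the list called on both replicates together, whose peaks share no base with a reproducible peak. That list also holds background by its title, so the lower summits are a reference for position and sequence and not a set of weak binding sites. Their median signal of 27.1 is low by construction.

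The strongest promoter peaks lay at genes of several kinds, among them protein synthesis, secretion and control of mRNA. The first was that of rpl-3, a protein of the large ribosomal subunit, with a signal of 856 on both replicates together, 496 in replicate 1 and 363 in replicate 2. That of tasp-1 followed with 607, 357 and 251, and the peak between trap-3 and sec-61.B with 454, 266 and 189.5. The order of these 3 was the same in each replicate list. Further peaks among the 20 strongest lay at cdc-48.1, an ATPase that extracts ubiquitinated proteins (401), at ftt-2, a 14-3-3 protein (380), at cox-5B, a subunit of cytochrome c oxidase (364), at puf-9, a Pumilio-family RNA-binding protein (333), at iff-2, an eIF5A homolog (327), at cbp-1, a histone acetyltransferase (326), and at epn-1, an epsin of endocytosis (312). Those of rpl-15 (445), serp-1.1 (436), F16G10.6 (401), hsp-3 (375), tag-340 (371), dhs-8 (363), K12H4.5 (349), sec-61.G (344), trap-2 (338) and his-37 (336) complete the 20. All of these 20 summits were intergenic.

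Nearly every promoter peak was present in both replicate lists, but the strength of a peak agreed only in part. A replicate 1 peak shared at least 1 bp with 494 of the 496 (99.6%, exact 95% interval 98.6 to 99.95) and a replicate 2 peak with all 496. The replicate lists are long, with 30000 and 26622 peaks, and the reproducible list derives from them, so this overlap follows in part from how it was made. The 2 members with no replicate 1 peak were those of C52B11.5 (179, replicate 2 at 83.3) and rpl-11.2 (115, replicate 2 at 52.6). Median signals were 80.2 in replicate 1 and 56.0 in replicate 2. Spearman's rho between the replicate signals was 0.466 over 494 peaks, 0.611 on X (n = 83) and 0.434 on the autosomes (n = 411). These values describe peaks from the same pair of libraries and are not independent points. They cover only members of the reproducible list, with signals from 99.0 up, and do not describe agreement over the whole replicate lists. When each replicate's own 1422 strongest nuclear peaks were used instead, 85.3% of promoter peaks overlapped those of replicate 1 and 75% those of replicate 2.

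**Figure D1:**
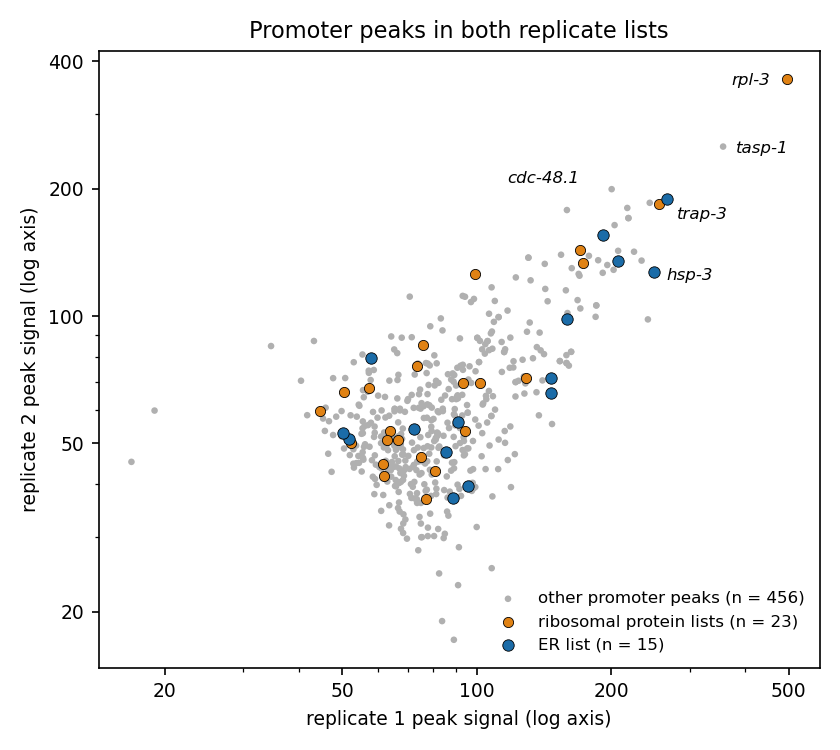
Peak signal of the promoter peaks in the replicate 1 list (x axis) and the replicate 2 list (y axis), both log axes and in the authors' units, with 1 point for each of the 494 peaks found in both lists. Orange points are peaks at ribosomal protein genes and blue points peaks of the endoplasmic reticulum (ER) list, including 1 shared with a ribosomal gene. The strongest peaks, from rpl-3 at 496 and 363 down to hsp-3 at 250 and 127, rank high in both lists, while weaker peaks form a broad cloud.

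Summits lay mainly upstream of the start. The offset, the signed distance from the nearest protein-coding start to the summit, had a median of -210 bp (95% interval -232 to -178; interquartile range -422.5 to -53), against -80 bp (-89 to -72) for the lower pooled summits. Of the promoter peaks 403 (81.2%, 77.5 to 84.6) were upstream of the start, against 59.4% (58.5 to 60.3) of the lower pooled summits. The 3 bins from -300 bp to the start held 15.9%, 14.7% and 14.7% of promoter peaks, and the first 100 bp downstream 8.27%. Past the start the order was the other way: 18.8% of promoter peaks and 40.6% of lower pooled summits lay at or downstream of it. A summit was intergenic in 64.5% (60.1 to 68.7) of promoter peaks, in an intron in 16.5% and in an exon in 19.0% (15.6 to 22.7). The corresponding shares of the lower pooled summits were 34.7%, 24.3% and 41.0%. Since starts of many worm transcripts lie at trans-splice sites in the annotation, an offset is a distance to the annotated 5′ end.

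**Figure D2:**
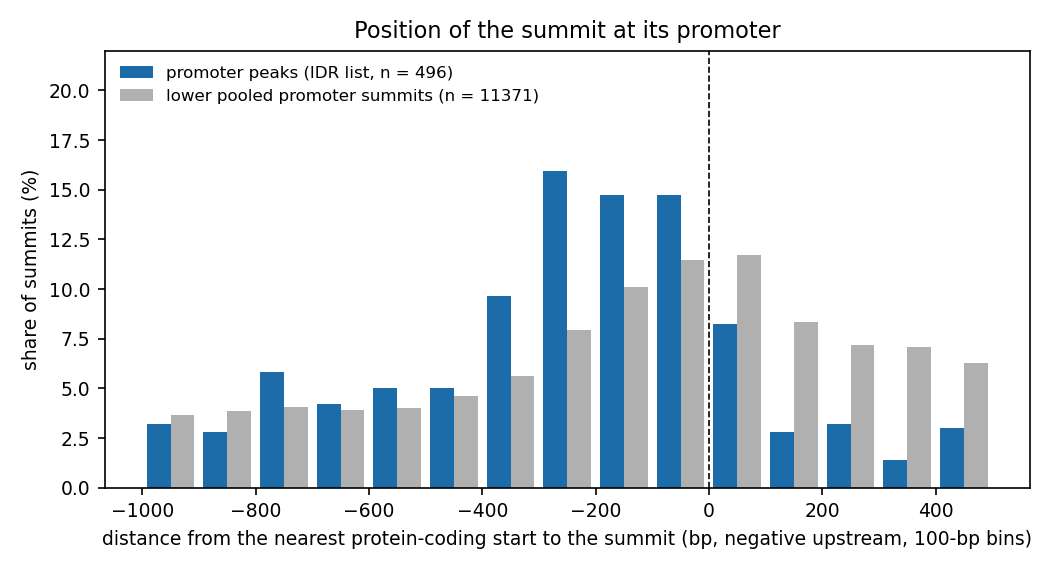
Share of summits (y axis, percent) by distance from the nearest protein-coding start (x axis, bp, 100-bp bins, negative values upstream), for the 496 promoter peaks (blue) and the 11371 lower pooled promoter summits (grey). The promoter peaks are most frequent from 300 bp upstream to the start, with 15.9% in the highest bin, and fall off downstream, where the grey bars stay higher.

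Divergent promoters, here summits that lie in windows of starts on both strands, made up 85 of 496 promoter peaks (17.1%, 13.9 to 20.7). In 84 of them the nearest starts pointed away from each other. The share was 13.6% (13.0 to 14.3) among lower pooled summits, an interval that meets that of the promoter peaks, and 9.41% of all bases covered by promoter windows lay in windows of both strands. A larger contrast was in where the summit sat. It lay between both starts in 71 of 84 divergent peaks (84.5%, 75 to 91.5), against 794 of 1514 (52.4%, 49.9 to 55) lower pooled pairs. Such a summit is upstream of both starts, and promoter peaks of all kinds were more often upstream (81.2% against 59.4%). The contrast is thus not shown to be particular to divergent promoters. The starts of a pair were a median of 558 bp apart (445 to 785) and 513.5 bp in the lower pooled pairs. The summit was a median of 169.5 bp from the nearer and 467 bp from the farther start. Divergent and single promoters had signals of 132 (118 to 150) and 128 (123 to 132). Ranked by signal in sets of 124, divergent peaks made up 24.2% (17 to 32.7) of the strongest set and 11.3%, 15.3% and 17.7% of the following ones, with intervals that overlap.

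Of the 8 strongest divergent peaks, 1 joined genes of the same route. Starts of trap-3 and sec-61.B, subunits of the translocon-associated complex and of the SEC61 channel through which new proteins enter the ER, lay 770 bp apart on chromosome IV with the summit 296 bp and 474 bp upstream of them (IV:2388930-2389373). On X the peak between trap-2 and ile-2 (X:768089-768394) had a signal of 338, 191 in replicate 1 and 155 in replicate 2. The peak of rpl-15 and K11H12.8 had its summit 348 bp and 466 bp upstream of the starts. In the peak between nhl-2, a TRIM-NHL protein that acts with microRNAs, and tag-340, the starts were 1423 bp apart. Others among the 8 strongest were those of tasp-1 and K01G5.10 (607), iff-2 and F54C9.14 (327), rpl-20 and Y17G9B.5 (311), and wip-1, a partner of WASP in actin assembly, and larp-1, a La-related RNA-binding protein (293). A shared summit does not tell which of its genes the site serves, and genes of 1 pair are counted once each below.

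The annotation used here has no operon features, so genes on the same strand at most 500 bp from the gene before them stood in for operons. Such close clusters do not equal operons. The nearest start belonged to the first gene of a cluster in 87 promoter peaks (17.5%, 14.3 to 21.2), to a later gene in 77 (15.5%, 12.4 to 19.0) and to a standalone gene in 332 (66.9%). Among lower pooled summits these shares were 14.8%, 24.0% (23.2 to 24.8) and 61.2%, and among all nuclear protein-coding genes 13.0%, 17.3% and 69.7%. Against the lower pooled summits the clearest contrast was at later genes, which held a smaller share of promoter peaks. Against all genes there was no such contrast, since the interval for later genes includes their 17.3%. The interval for first genes lies above their 13.0%. By gene, 111 of 2587 first genes had a promoter peak (4.29%, 3.54 to 5.14), against 87 of 3457 later genes (2.52%, 2.02 to 3.10) and 372 of 13929 standalone genes (2.67%, 2.41 to 2.95). With only the gene of the nearest start counted, these were 3.21% (2.56 to 3.96), 2.14% and 2.22% (1.98 to 2.48). Summits at first and standalone genes had median offsets of -232 bp each, and those at later genes lay closer to the start, at -104 bp (-155 to -73). The 6 strongest peaks at first genes were those of tasp-1, rpl-15, K12H4.5, sec-61.G, wip-1 and sym-4 (277). Of the 85 divergent peaks 26 (30.6%) lay nearest a first gene and none a later gene, which follows in part from the definition, since a later gene has a same-strand neighbour just upstream.

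Promoter peaks were only modestly concentrated on X. It held 85 of 496 (17.1%, 13.9 to 20.7), against 13.7% of protein-coding genes, 14.9% of the bases in promoter windows and 11% (10.4 to 11.6) of lower pooled summits. The interval includes the share of window bases. X held 23.9% (20.1 to 28.1) of the other nuclear peaks and 38.0% (33.6 to 42.6) of those at small-RNA genes, both with intervals that lie above or just meet that of the promoter peaks. By gene, 3.19% (2.56 to 3.91) of X genes had a promoter peak and 2.80% (2.56 to 3.06) of autosomal genes. Chromosome III had the highest share, 4.17% (3.44 to 5.00), and V the lowest, 1.80% (1.45 to 2.21), with I at 3.44%, IV at 3.05% and II at 2.44%. Only III and V did not overlap the 2.85% of all genes within their intervals.

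**Figure D3:**
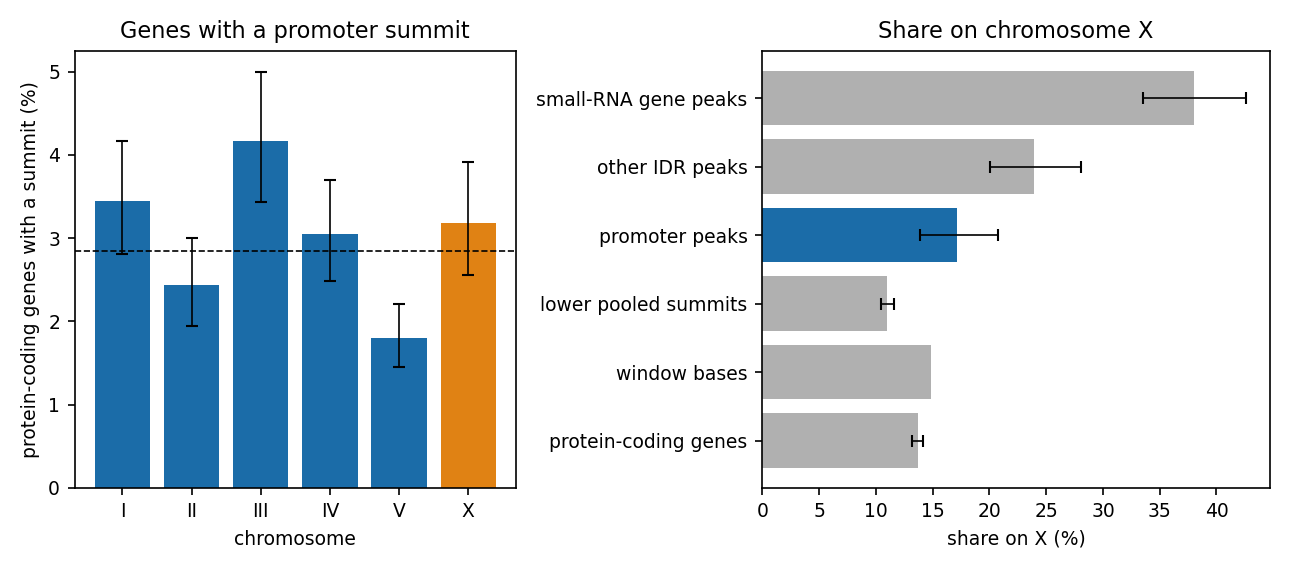
Left, share of protein-coding genes with a promoter peak on each chromosome (percent, bars) with exact 95% intervals, X in orange, and the share over all genes, 2.85%, as a dashed line. Right, share of each set that lies on X (percent, with exact 95% intervals except for window bases, which are a length). Promoter peaks, in blue, are at 17.1%, between the lower pooled summits at 11% and the peaks at small-RNA genes at 38.0%.

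On X the promoter peaks differed from autosomal ones in setting and not in strength. Their median signal was 129 (120 to 140) and that of autosomal peaks 128 (123 to 132). The summit was intergenic in 70 of 85 X peaks (82.4%, 72.6 to 89.8) and in 250 of 411 autosomal peaks (60.8%, 55.9 to 65.6). Among lower pooled summits the shares were 45.9% and 33.3%, in the same direction. Median offsets were -256 bp (-328 to -178) on X and -198 bp (-226 to -166) on the autosomes. Divergent peaks were rare on X, 5 of 85 (5.88%, 1.94 to 13.2), against 80 of 411 (19.5%, 15.7 to 23.6). So were divergent windows in the annotation, at 3.45% of window bases on X and 10.5% on the autosomes. The 8 strongest peaks on X were those of serp-1.1, ftt-2, hsp-3, trap-2, puf-9, epn-1, fbxb-58 (294) and ain-1, a GW182-family partner of Argonaute (284).

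A promoter peak was assigned to every protein-coding gene whose window held its summit. This gave 570 of 19973 genes (2.85%, 2.63 to 3.09), or 6.89% of the 8269 genes with any pooled promoter summit. The strongest peaks of replicate 1 alone gave 590 genes (2.95%) and those of replicate 2 alone 552 (2.76%). The nearest start only gave 466 genes (2.33%). Of the 570 genes, 344 (60.4%) were found in both replicates alone. A single summit served 540 of these genes, 27 had 2 and 3 had 3, namely dct-16, sms-3 and zfp-1. The next paragraphs describe 32 gene lists by their counts against these shares.

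Of the 32 lists, that of the ER had the highest share of genes at a promoter peak. The list held 28 genes for ER chaperones, the translocon and the unfolded protein response (UPR), the signalling system that raises ER folding capacity. Of these, 16 had a promoter peak (57.1%, 37.2 to 75.5), through 15 peaks. Counted over the 27 with any pooled promoter summit, the share was 59.3%, against 6.89% of all genes. The count was 13 with the nearest start alone and 13 and 16 in replicates 1 and 2 alone. The median signal over the 16 genes was 177, with the peak of trap-3 and sec-61.B counted for each of them.

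The translocon and the proteins around it held the strongest peak of this list, that of trap-3 and sec-61.B. The peak of the chaperone hsp-3 (375) followed. Among other translocon genes, sec-61.G, the small subunit of the SEC61 channel, had a signal of 344, with 208 in replicate 1 and 135 in replicate 2. Its summit lay 201 bp upstream. The peak of trap-1 had a signal of 259, with 160 and 98.6. Those of sec-61.A (148, with 90.8 and 56.2), shared with rps-18, and of spcs-2 of the signal peptidase (124, with 88.4 and 37.1) were weaker. Members of this route with a promoter peak thus ranged from the third strongest to below the median of 128. Others had none: the best pooled promoter summits of trap-4 (47.6), srpa-72 (50.1), spcs-1 (27.6) and spcs-3 (33.0) were far lower.

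Chaperones and UPR regulators were also present. The peak of hsp-3, one of the worm's BiP homologs and thus an HSP70 chaperone of the ER, had a signal of 375, with 250 and 127, and its summit 53 bp upstream of the start. That of enpl-1, an HSP90 chaperone of the ER, had a signal of 216, with 147 and 71.5. The peak of xbp-1, the transcription factor that IRE-1 activates by splicing its mRNA, had 206, with 147 and 65.7, and its summit 4 bp inside the gene in an exon. Replicate 1, the list with the higher median, had the higher value in these 3. Peaks of pdi-1 (135), crt-1, the calreticulin gene (134), pdi-6 (133), atf-6, a membrane-bound UPR factor (129), and pdi-3 (102) were nearer to the median of all promoter peaks. The 12 members without a promoter peak include hsp-4, the other BiP homolog, with a best pooled promoter summit of signal 48.9 at rank 4941. The kinase genes ire-1 (31.5) and pek-1 (68.0), atf-4 (48.8), pdi-2 (73.9) and cnx-1 (62.6) also lay below the lowest promoter peak of 99.0.

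Protein synthesis genes formed the next group. Of 50 genes for large-subunit ribosomal proteins 14 had a promoter peak (28%, 16.2 to 42.5), and of 31 for small-subunit proteins 9 did (29.0%, 14.2 to 48). In replicate 1 alone the counts were 14 and 9, and in replicate 2 alone 14 and 7. The large-subunit count includes summits far downstream in short genes. Those of rpl-41.2, rpl-32 and rpl-31 lay past the 3′ end of the gene, 443, 440 and 413 bp downstream of the nearest start. That of rla-1 lay 429 bp downstream, in an exon near the 3′ end. The strongest large-subunit peaks were those of rpl-3, rpl-15, rpl-20 and rpl-35 (306, with 173 and 133). The strongest small-subunit peaks were lower than these 4, although the median signal was 147 for the small-subunit and 122 for the large-subunit list. They were those of rps-1 (220, with 99.2 and 125), rps-19 (202, with 129 and 71.5), rps-28 (173) and rps-18 (148). For 6 of the 9 small-subunit genes the peak was divergent, and the share was 12.9% with the nearest start alone. Translation factors had 5 of 45 (11.1%, 3.71 to 24.1), with iff-2, eef-1A.2 (190), eef-1G (145) and eif-3.C (115) the strongest. Aminoacyl-tRNA synthetases had 1 of 32, ears-2 (174), and mitochondrial ribosomal proteins 2 of 70 (2.86%), mrps-21 and mrps-31, near the background. In replicates 1 and 2 alone the synthetases had 2 and 1, and the mitochondrial ribosomal proteins 1 and 0.

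Respiratory chain, chaperone and ubiquitin conjugation genes stood between the ribosomal lists and the background, and proteasome genes below it. Respiratory chain subunits had 7 of 53 (13.2%, 5.48 to 25.3), led by cox-5B, cox-6B (230), nduf-9 (211) and cox-5A (206), but 3 with the nearest start alone. Cytosolic and mitochondrial chaperones had 8 of 67 (11.9%, 5.30 to 22.2). This list includes hsp-3 by its symbol, and hsp-60, the mitochondrial chaperonin, followed with 220, then dnj-14 (169) and hsp-1, an HSP70 (167). Ubiquitin and related conjugation genes had 7 of 60 (11.7%, 4.82 to 22.6), led by ubc-6 (199), ubq-1, a polyubiquitin gene (186), ubc-3 (116) and ubc-25 (112), but 4 in replicate 2 alone. Proteasome subunits had none of 33, which allows up to 10.6%, and the best pooled summit among them was that of rpn-3 with 92.5. Replicate 2 alone gave 1 proteasome gene and replicate 1 alone 0.

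Smaller lists had a few members each, with wide intervals. V-ATPase subunits had 4 of 21 (19.0%, 5.45 to 41.9), which were vha-13 (211), vha-1 (197), vha-2 (132) and vha-8 (130), and 4 in each replicate alone. Stress and immune regulators had 4 of 24 (16.7%, 4.74 to 37.4), with zip-2 (228), a bZIP factor of pathogen defence, cebp-1 (223), a C/EBP homolog, wdr-23 (142), an inhibitor of SKN-1, and skn-1 itself (113). Replicate 1 alone gave 5 of these regulators and replicate 2 alone 7. Lysosomal proteases and membrane proteins had 4 of 34 (11.8%, 3.30 to 27.5), asp-1, cpr-4, asp-12 and cpr-9, all with signals from 102 to 114, but 1 in replicate 1 alone and 5 in replicate 2 alone. Actin, tubulin and muscle genes had 6 of 52 (11.5%, 4.35 to 23.4), with tba-7 (221), tbb-1 (216), tba-2 (126) and tbg-1 (118) leading. Histones had 7 of 81 (8.64%, 3.55 to 17) on only 4 peaks: his-37 had its own, while his-59/his-60, his-61/his-62 and his-67/his-68 each shared a divergent one. The shared summits did not lie between the starts of a pair. They were in exons of his-60, his-62 and his-67, 211, 239 and 79 bp downstream of the start. Small GTPases and coat proteins, taken by symbol and so without unc-108, had 4 of 62 (6.45%, 1.79 to 15.7), rab-7 (204), rab-18, rab-5 and rab-11.1, but 2 in replicate 2 alone.

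The remaining lists had 3 members or fewer at promoter peaks, except the nuclear hormone receptors. Ribosome biogenesis and RNA polymerase I and III genes had 3 of 35, rpc-2 (156) and ruvb-1 (119) leading. The spliceosome list had 3 of 54, rsp-1 and rsp-2 on 1 peak (113) and rsp-6 (110), and 5 in replicate 1 alone. Cell cycle and replication genes had 3 of 56, with cdc-48.1, which its symbol placed there, and cdk-7 (131) leading. Insulin and TOR signalling had 1 of 28, rheb-1 (150), and vitellogenins 1 of 6, vit-2 (181). The Myc, Mondo and Mad list had 1 of 8, hlh-11 (192), which its symbol placed there and which may not belong to that family. That list had 2 in each replicate alone, and vitellogenins 2 in replicate 2 alone.

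Several large or tissue-restricted families lay at or below the background share. Nuclear hormone receptors, the family of NHR-90 itself, had 7 of 274 (2.55%, 1.03 to 5.19), led by nhr-68 (202), which controls propionate breakdown genes, nhr-35 (185), nhr-49 (146), a regulator of fat metabolism, and nhr-105 (129). The summit at nhr-68 lay 430 bp upstream of its start and only 20 bp upstream of that of H12C20.7 on the other strand. With the nearest start alone the receptors had 6. Fatty acid genes had 3 of 99 (3.03%), with acdh-1 (147), an acyl-CoA dehydrogenase of that propionate route, and elo-1 (102) first. With windows from 2000 bp upstream to 1000 bp downstream the share of fatty acid genes was 9.09% (4.24 to 16.6), against 4.12% of all genes. Cytochrome P450 and conjugating enzymes had 2 of 189 (1.06%, 0.128 to 3.77), gst-9 (125) and ugt-20 (107), and 1 and 4 in replicates 1 and 2 alone. C-type lectins had 2 of 240 (0.833%), clec-150 (113) and clec-178 (111), but none in replicate 1 alone. Cuticle collagens had 1 of 174, col-38 (120), on a peak shared with rpl-5, and neuropeptide genes 1 of 143, ins-39 (194). F-box and MATH-BTB genes had 3 of 395 (0.759%, 0.157 to 2.20), with fbxb-58 and fbxa-108 (155) first. Chemoreceptors had 3 of 1310 (0.229%, 0.0473 to 0.668), with srh-2 (205) and srv-1 (136) first, and 4 and 5 in replicates 1 and 2 alone. Homeodomain genes had none of 94, which allows up to 3.85%, and intestinal GATA factors and structural genes none of 22, up to 15.4%. Replicate 2 alone gave 2 homeodomain genes, and each replicate alone gave 1 of the intestinal list. Families of this kind also had fewer pooled summits: 126 of the 1310 chemoreceptors had any, and 3 of those 126 is 2.38%, against 6.89%.

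**Figure D4:**
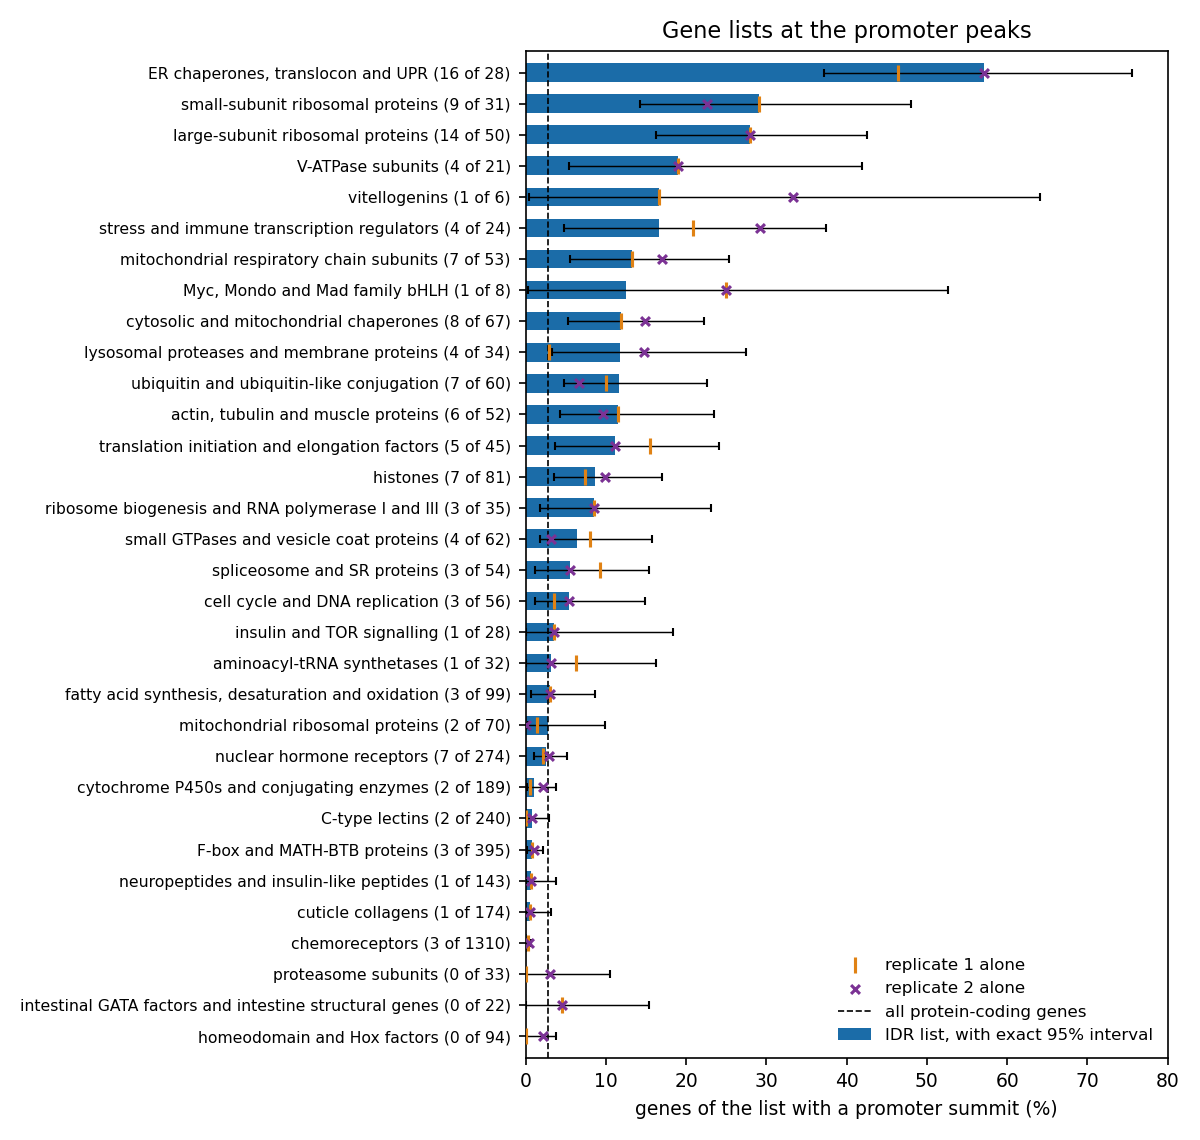
Share of the genes of each of the 32 lists with a promoter peak (percent, blue bars) with exact 95% intervals (black), and the same share from the strongest peaks of replicate 1 alone (orange ticks) and replicate 2 alone (purple crosses). The dashed line is the share of all protein-coding genes, 2.85%. The ER list stands at 57.1%, both ribosomal lists near 28% to 29%, and the chemoreceptors at 0.229%.

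Base composition differed between the summits and their flanks. The 100 bp at the summit had a mean GC content of 48.8% (SD 8.18, n = 496 windows), and 100-bp windows centred 500 bp away on either side 36.8% (SD 9.66, n = 992). Lower pooled summits had 40.5% (SD 9.78), X promoter peaks 51.4% (SD 7.34) and peaks of the ER list 55.7% (SD 5.84, n = 15). The shares of words below were not adjusted for base composition, and its part in them was not tested.

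Words that gained most at the summits over their flanks were GA and CA repeats and words that overlap GACGCA. All 2080 words of 6 letters, each counted with its reverse complement, were ranked on the 411 autosomal peaks by the difference between summit and flanking windows. The 10 leading words were then read on the 85 X peaks, which had not been used to rank them. All 10 were more frequent at the X summits than beside them. All 10 were also more frequent at the 496 promoter peaks than at lower pooled summits. That comparison is no separate check, since the 496 include the 411 peaks used for the ranking. Several of the 10 overlap one another. The first, GAGAGA, was in 22.4% (14 to 32.7) of X summit windows and 7.06% of X flanks. Lower pooled windows held it in 12.6% (10.8 to 14.6) on X, an interval that meets that of the X peaks, and in 9.88% on all chromosomes. It was in 109 of all 496 promoter windows and in 99 of 460 windows of the other nuclear peaks of the list (21.5%, 17.9 to 25.6), about the same share. The third, GACGCA, was in 10.6% (4.96 to 19.2) of X summit windows and 2.94% of flanks. The fifth, CACACA, was in 28 of 85 X windows (32.9%, 23.1 to 44.0) and 5.29% of X flanks, and in 16.8% (13.3 to 20.8) of autosomal windows. Of all stretches of 100 bp centred 100 bp upstream of protein-coding genes, 8.92% held GAGAGA and 5.72% CACACA.

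With 9 letters, the leading autosomal word was CTGCGTCTC, shown in the sequences above. It was in 32 of 496 summit windows (6.45%, 4.45 to 8.99), in 2 of 992 flanking windows (0.202%), in 1.75% (1.52 to 2.01) of lower pooled windows and in 1.22% of all upstream windows. On X, which was not used to choose it, it was in 5 of 85 summit windows (5.88%, 1.94 to 13.2) and 1 of 170 flanks. The other nuclear peaks of the reproducible list held it in 7.39% and those at small-RNA genes in 0.429%. Among divergent peaks 2 of 85 held it (2.35%, 0.286 to 8.24) and among single ones 30 of 411 (7.30%, 4.98 to 10.3), with overlapping intervals. Peaks with the word were not stronger: their median signal was 117 (109 to 148) and that of the others 129 (124 to 132). The strongest were those of hsp-3, sec-61.G, drr-2, cebp-1 and zip-11, and those of cebp-1 and Y18D10A.4 had 2 copies. No peak of a ribosomal protein gene, of 25, held it, which allows up to 13.7% and so includes the 6.45% of all promoter peaks.

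**Figure D5:**
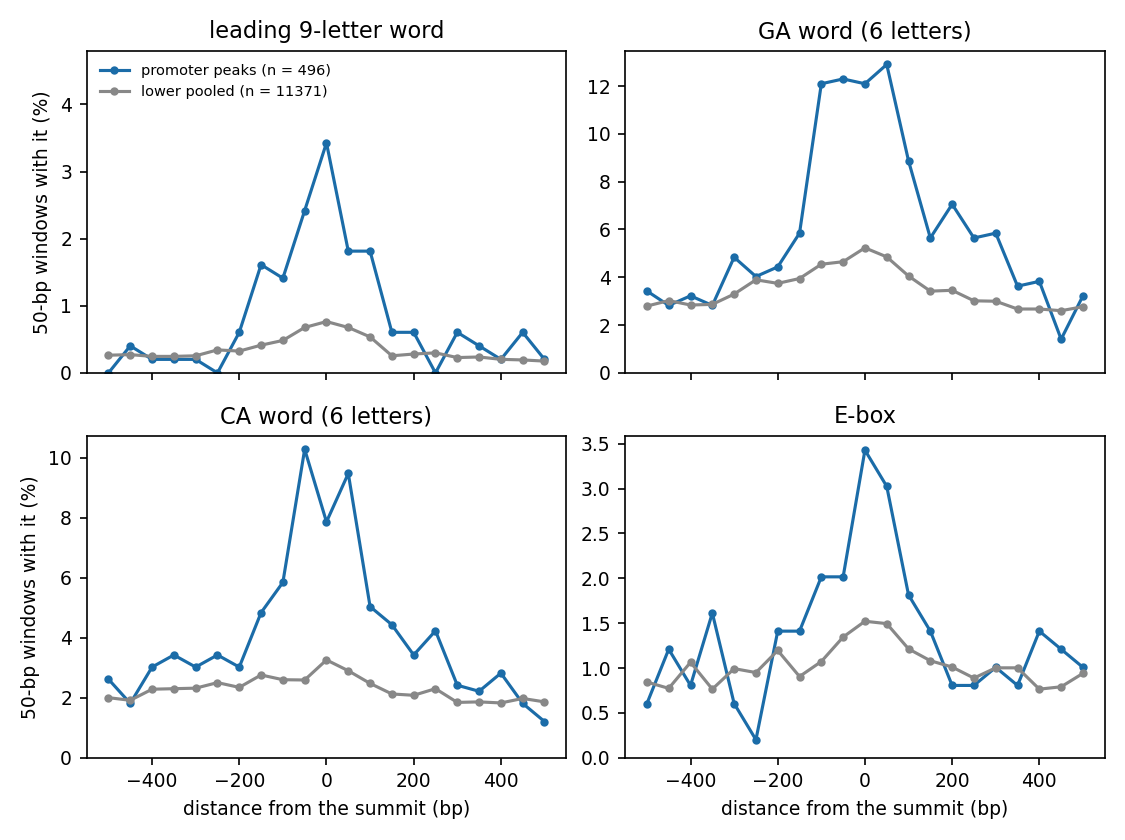
Share of 50-bp windows that hold a word (y axis, percent, on a scale of its own in each panel) by distance of the window from the summit (x axis, bp), for the 496 promoter peaks (blue) and the 11371 lower pooled promoter summits (grey). At the summit all 4 are more frequent in blue than in grey, for the leading 9-letter word 3.43% of windows against 0.765%, and for GAGAGA 12.1% against 5.23%.

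Known motifs, each sought on both strands, gave a smaller set of contrasts. The GA repeat GAGAGAG was in 57 promoter windows (11.5%, 8.82 to 14.6), 1.01% of flanks, 3.51% of lower pooled windows and 2.82% of all upstream windows. Peaks with it had a median offset of -325 bp (-450 to -212). That of all promoter peaks was -210 bp (-232 to -178), with intervals that overlap. The E-box CACGTG, bound by basic helix-loop-helix factors, was in 29 promoter windows (5.85%, 3.95 to 8.29), and in the same order in 1.71%, 3.05% and 2.42%. The other nuclear peaks of the list held it in 9.13%. An E-box or a GA repeat was in 85 promoter windows and both in 1, that of ltah-1.2. The GC box was in 5.85% of promoter windows, 1.71% of flanks and 2.55% of all upstream windows. The Sp1 word GGGCGG, whose letters can be part of a GC box, was in 8.47%, 2.72% and 3.35%.

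Motifs of hormone receptors and of intestinal factors were near their flanking level. The nuclear receptor site AGGTCA was in 18 promoter windows (3.63%, 2.16 to 5.67) and 2.82% of flanks, and in 3.29% of all upstream windows. The GATA site TGATAA was in 10.5%, 9.48% and 12.4%. Words rich in A and T were rarer at the summit: the T run TTTTTTT was in 6.45% of promoter windows, 20.2% of flanks and 24.4% of all upstream windows, and TATAAA in 4.64%, 10.4% and 14.1%. In the same order, CCAAT was in 15.3%, 17.4% and 17.1%, and the heat-shock pair GAANNTTC in 4.44%, 6.05% and 6.06%. The AP-1 site (TGAGTCA or TGACTCA) and the CRE word TGACGTCA were each in 6 of 496 promoter windows, with 1.33% and 0.436% of all upstream windows.

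Peaks of the ER list were examined for letters linked to the UPR. CCAAT, which is part of the mammalian ER stress element, was in 7 of 15 summit windows (46.7%, 21.3 to 73.4) and 6 of 30 flanks, and in 6 of 28 windows at lower pooled summits of these genes. Of all promoter peaks 15.3% held CCAAT. It was in 22 of 85 divergent peaks (25.9%) and in 54 of 411 single ones (13.1%). Of the 16 ER genes with a promoter peak, 9 had a divergent one. The part of divergent promoters in the CCAAT share of this list was not tested. CCACG, the other part of the ER stress element, was in 4 of 15 and 2 of 30, with 18.3% of all promoter peaks and 8.30% of all upstream windows. The core TGACGTG of the UPR element was in 2 of 15 (13.3%, 1.66 to 40.5), with 2.42% of all promoter peaks and 1.10% of all upstream windows. No E-box was found in these 15 windows. CCACG and TGACGTG were added after the count of the list was known, and with 15 peaks these shares are imprecise.

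Peaks nearest to the edges of the rule, inside and outside, had the following signals. Within the upstream edge lay pqn-87 (-997 bp, 119), dhs-8 (-996 bp, 363) and ppm-2 (-996 bp, 287), and beyond it ugt-50 (-1006 bp, 129), gid-2 (-1008 bp, 106) and C05C10.3 (-1031 bp, 118). Within the downstream edge lay tmem-107 (462 bp, 144), egl-27 (457 bp, 198) and F08G5.3 (457 bp, 109), and beyond it clec-221 (501 bp, 119), tps-2 (507 bp, 128) and zfp-1 (555 bp, 134). Summits just over 100 bp from a small-RNA gene were those of F17C11.26 (102 bp, 153), F08G5.3 (110 bp) and C33A12.3 (120 bp, 120), and those just under were at srh-269 (96 bp, 168), K05F1.6 (94 bp, 337) and F09G2.2 (92 bp, 104). The weakest members, acdh-9 (99.0), Y47G6A.5 (99.0) and F22H10.2 (99.2), and the strongest pooled promoter summits left off the list, F22H10.3 (98.9), pigq-1 (98.8) and F57G12.1 (98.7), were next to each other in signal.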

How the data were processed

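Peak lists in narrowPeak format on build ce11 were used as deposited by the authors: 1 per replicate, 1 called on both replicates together (pooled) and 1 reduced to peaks that rank alike in both replicates by their irreproducible discovery rate (IDR). Lists on ce10 were not used. The caller, aligner, their versions and the IDR cutoff were not given in the sources used here. A control that the labels name as possible was not analysed here. The signal column holds the authors' peak signal, of unknown scale. The deposited −log10 q-value column shares its highest value among all IDR peaks and ranked nothing. Depth is unknown. Genes came from Ensembl release 115 (WBcel235), counting only transcripts annotated as protein-coding, and sequence from RefSeq. All peaks ended within the chromosome lengths.

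Shares have exact (Clopper-Pearson) 95% binomial intervals and medians order-statistic intervals (scipy 1.17.1, pandas 2.3.3, numpy 2.4.6, Python 3.11.15, figures with matplotlib 3.10.9). Replicate signals are those of the strongest overlapping peak, so neighbouring summits can share one. Position, cluster and motif code was tested on simulated data. Alternatives were other windows, small-RNA distances, cluster gaps, overlaps, stricter and merged peaks, each replicate alone and the nearest start.

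Named genes are the 20 strongest peaks, the 8 strongest divergent and X peaks, the 6 strongest at first genes, up to 4 per gene list and the 3 nearest each edge. Other names were chosen after their values were seen. The values of 1 gene of the ER list are not reported here. Members and lists were chosen with earlier results of these data known. The chemoreceptor list was corrected after its count was seen, because its pattern matched other symbols. The word search, 2 motifs and the lists of the closing section were also added after the data were seen.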

Additional observations from a re-analysis of the deposited data

How the results depend on the processing

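The 2 libraries of 1 group limit the results, and depth, caller and control are unknown. No paired analysis was possible because there is 1 group. Replicates 1 and 2 alone gave 516 and 481 promoter peaks, and X, divergent, first-gene, E-box and GA repeat shares and median offsets inside the reported intervals. A window of 500 bp on both sides gave 12% divergent peaks and a median offset of -148 bp, and one from 2000 bp upstream to 1000 bp downstream gave 26.4% divergent. The lower pooled summits moved alike, to 7.47% and 21.4%. The 720 strongest IDR peaks gave 184 promoter peaks, 221 genes, a median offset of -258.5 bp and a GA repeat in 14.7%, and 32.1% of the ER list against 1.11% of all genes. Gaps of up to 200 bp and 1000 bp gave first-gene shares of 13.9% and 21.4%. Windows of 200 bp at the summit gave the E-box in 11.1% and the GA repeat in 19.2%. Requiring a replicate peak to cover at least 50% of the interval, or its summit to lie within 100 bp, gave 96.2% and 92.9% found in both lists. The cause of these shifts was not tested, beyond the larger or smaller windows and sets. Of 288 values of gene lists under alternatives, 268 stayed inside the interval of the reported share and 20 did not.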

Other observations

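Further gene groups were put together after the promoter peaks had been seen, so their counts only describe the members, beside 2.85% of all genes and 6.89% of those with any pooled promoter summit. Among genes that act with microRNAs or repress translation, 7 of 22 had a promoter peak, namely nhl-2 (signal 371), larp-1 (293), ain-1 (284), atx-2 (232), ifet-1 (220), cgh-1 (193), a DEAD-box helicase of RNP granules, and vig-1 (187). Both 14-3-3 genes had one, ftt-2 (380) and par-5 (117). Of 12 zip genes for bZIP factors 5 did, with zip-2 (228) and zip-11 (195) first. Of 27 autophagy genes 5 did, which were lgg-2 (159), epg-7 (129), lgg-1 (118), epg-4 (117) and atg-7 (103). Subunits of the ESCRT complexes, which sort membrane proteins for degradation, had 4 of 13, those of the DREAM complex 3 of 9, which were lin-54 (161), lin-9 (121) and lin-53 (118), and Rab GTPases 5 of 21.

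The 11-base run shared by the windows of rpl-3 and tasp-1 was in no other promoter peak, in 3 of 11371 lower pooled windows and in none of the 460 other nuclear or 466 small-RNA gene peaks. It was found by comparing those windows and was not tested.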
